A study of Mus musculus with 6 samples.

Results

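Flat (2D) cultures of epithelium from the antrum of the mouse stomach were compared with flat cultures from its corpus. The samples were chosen by the region that the table's columns name and not by any measured value. They were 2 antrum libraries (wild type, antrum with pylorus, per the labels) and 2 corpus libraries (wild type), 4 of the 6 libraries of the study. Per the labels, antrum and corpus were grown by the same method, and the remaining 2 libraries, from wild type forestomach, by another one. Forestomach entered the estimate of the spread and is otherwise given only as context. The mouse strain, age and culture medium were not stated in any source used. The sample titles carry the IDs AT75 and AT76, 1 of each in every region, so that the regions share both IDs. The labels do not say whether an ID stands for an animal, and the numbers of the table's columns are not tied to the IDs. P-values therefore describe library-to-library spread, part of which could be technical.

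In the animal, corpus glands hold acid-secreting parietal cells and enzyme-secreting chief cells, while antral glands are mostly mucous and hold the cells that release gastrin. The antrum ends at the pylorus, beyond which the intestinal epithelium of the duodenum begins, and Pdx1 is a transcription factor shared by antrum, duodenum and pancreas. Both regions are covered by pit cells, which secrete mucins and the small proteins called gastrokines.

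All values are CPM (reads per 1 M reads, scaled by the authors), which do not correct for gene length, so levels of different genes are not compared. The libraries held an estimated 38.7 and 46.9 M reads in antrum and 36.9 and 47.7 M reads in corpus, of which 16.6 and 17.5 M and 14.0 and 15.8 M fell on listed genes. A level of 3 reads was worth 0.063 to 0.081 CPM, which covers counting error only. Exact zeros are given as listed at 0, since some rows may be empty for reasons other than expression. Pearson's r of log2(CPM + 1) across genes, which are not independent replicates, was 0.968 to 0.981 between antrum and corpus libraries. The SD of the log2 difference between the libraries of a region was 0.375 in antrum and 0.315 in corpus.

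The region markers described here were chosen with earlier results of these data known, so their separation is no test of the labels. Nkx6-3, a homeobox gene of the antral and pyloric epithelium, stood at 42.05 and 28.7 CPM in antrum 1 and 2, against 1.84 and 0.06 CPM in corpus 1 and 2. Pdx1 stood at 18.02 and 17.16 CPM in the antrum libraries, against 3.5 and 2.43 CPM in the corpus libraries. Gif, the gene of gastric intrinsic factor (Cblif in current annotation), stood at 11.1 and 23.9 CPM in antrum, against 99.3 and 201 CPM in corpus. Pgc, which encodes pepsinogen C, stood at 307 and 346 CPM in antrum, against 1374 and 1516 CPM in corpus. Both markers of antrum were thus higher in both antrum libraries, both gland-base markers were higher in both corpus libraries, and no marker overlapped between regions. Of all genes tested below, 45.4% lay higher and 5.32% lower in antrum without overlap. Products that define mature parietal and endocrine cells were near or at 0 in both regions. Atp4a, which encodes the catalytic chain of the parietal proton pump, stood at 1.03 and 0.43 CPM in antrum, against 0.60 and 0.84 CPM in corpus. The gastrin gene Gast and the somatostatin gene Sst were listed at 0 in all 4 libraries.

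A gene was tested where 2 or more of the 6 libraries reached 1 CPM. Of 11891 such genes 90 (0.757%) differed between antrum and corpus (limma on log2(CPM + 1), Benjamini-Hochberg adjusted p under 0.05, two-sided). In antrum 66 (0.555%) were higher and 24 (0.202%) lower. At an unadjusted p under 0.05 there were 792 higher and 151 lower. The libraries of the regions did not overlap for any of the 90, and on the deposited scale all differed by more than 1 in log2(CPM + 1). Lack of overlap alone says little here, since 45.4% of the tested genes lay higher and 5.32% lower in both antrum libraries than in both corpus libraries. The median log2 fold change over all tested genes was 0.21, and log2 fold changes below are given relative to it, as antrum minus corpus on the log2(CPM + 1) scale, which understates changes of low genes. The tests themselves used the deposited scale. On that scale 73.3% of the called genes were higher. With all libraries set to 1 median ratio, 66 genes were called, 41 (62.1%) of them higher and 25 lower. Limma voom, cited below for single lists, used reads rounded from the CPM steps and, like the fit above, no replicate block. Such a block adds a term for the number of the column. With it and only the 4 antrum and corpus libraries, 2177 genes were called, some of them in lists described below as without a call. Of the 90 genes 15 kept their calls whichever of the 4 libraries was left out. Forestomach enters the pooled spread, and 2 libraries near 0 add almost no spread to a gene in this fit. Of the 66 higher genes 51 were under 1 CPM in both of these libraries, as were 21 of the 24 lower ones, against 8.87% of all tested genes. With only the antrum and corpus libraries fitted 26 genes were called, 23 of them among the 90. Of the genes described below, those 23 included Slc9a3, Prap1, Clca3, Ildr1, Cdhr2, AI467606, Dclk1, BC030476, Adh1, Tgm1, Ripply3, Slc16a10, Apoa1, Bpifb1, Anpep and Isl1, and the other called genes with values below lost their calls in that fit.

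**Figure D1:**
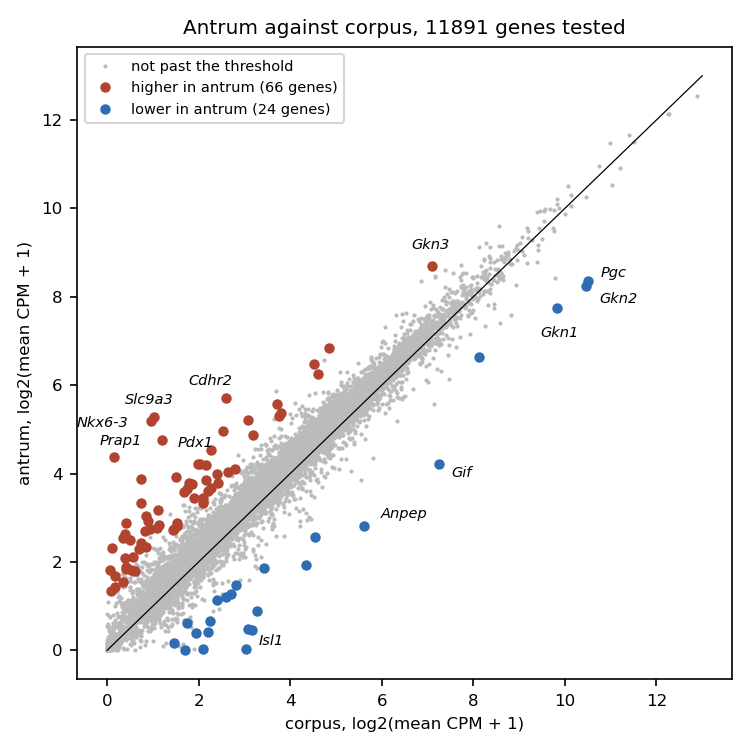
Mean level of each tested gene in antrum (vertical) against corpus (horizontal), both as log2(mean CPM + 1), with the diagonal of equal levels. Each point is 1 of 11891 genes; the 66 genes higher and the 24 lower in antrum lie off a dense band that runs along the diagonal.

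Transcription factors listed for the antrum, pylorus and duodenum were called in both directions. The list holds the markers Nkx6-3, Pdx1 and Isl1 and was chosen with earlier results of these data known. Of 15 such factors listed, 10 were in the table and 6 were tested, of which 3 were higher, 1 was lower and 2 did not pass. Their median log2 fold change was 1.21, against 0 over all tested genes on this relative scale. Both antrum libraries lay above both corpus libraries for 4 of the 6 and below them for 2. Over all tested genes these shares were 45.4% and 5.32%. Nkx6-3 had the largest change of all called genes, 4.15 on the log2 scale (SE 0.42, adjusted p = 0.00248), and averaged 35.4 ± 9.44 CPM in antrum and 0.95 ± 1.26 CPM in corpus (SD, n = 2 each). Its call was lost with only the antrum and corpus libraries in the fit (adjusted p = 0.0775), where 0 factors of the list were higher and 1 was lower. Pdx1 was higher by 2.03 on the log2 scale (SE 0.24, adjusted p = 0.00449), a change that missed the threshold without corpus 2 (adjusted p = 0.0593). Onecut2, a cut-homeobox factor of endodermal epithelia, stood at 4.96 and 3.88 CPM in antrum, against 0.43 and 0.92 CPM in corpus (log2 fold change 1.49, SE 0.23, adjusted p = 0.0128). Onecut2 lost its call without antrum 1 (adjusted p = 0.0932) and without corpus 1 (adjusted p = 0.0872).

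Isl1 was the listed factor called lower. This LIM-homeodomain factor, known from endocrine cells and from the mesenchyme of the pyloric sphincter, stood at 0.03 and 0.02 CPM in antrum, against 6.32 and 8.16 CPM in corpus. The antrum values are at the level of single reads, and the corpus values lie far above them. The log2 fold change was -3.21 (SE 0.21, adjusted p = 0.000557), and the call held in every fit that left out 1 library. Of the other endocrine genes listed, Insm1, a factor of endocrine precursors, stood at 3.33 and 1.34 CPM in antrum, against 3.55 and 2.41 CPM in corpus, and did not pass. The neurogenin gene Neurog3 and Neurod1, factors that drive endocrine differentiation, were listed at 0 in all 4 libraries. Of the 26 endocrine genes in the table, 10 were listed at 0 in all 4 libraries and 5 were tested, of which Isl1 alone differed.

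The factors listed for the corpus and proximal stomach gave 1 call. Of 10 tested, 1 was higher, none was lower and 9 did not pass, with a median log2 fold change of -0.06. The higher one was Nkx6-2, a relative of Nkx6-3, at 6.74 and 3.60 CPM in antrum, against 0.57 and 0.06 CPM in corpus (log2 fold change 2.00, SE 0.29, adjusted p = 0.0122). Its adjusted p was 0.054 without antrum 1 and 0.0821 without corpus 2. Irx5 and Irx3, Iroquois homeobox genes, were near 0 in antrum and varied between the corpus libraries. Irx5 stood at 0.03 and 0 CPM in antrum, against 4.20 and 1.22 CPM in corpus, with an adjusted p of 0.171. Irx3 stood at 0.13 and 0.11 CPM in antrum, against 2.17 and 0.73 CPM in corpus, with an adjusted p of 0.22. Neither passed in this fit, although the regions did not overlap for either gene. Irx5 was called lower by limma voom (adjusted p = 0.0293) and with a pseudocount of 0.25 (adjusted p = 0.0397). In the other fits that kept every antrum and corpus library and had no replicate block, its adjusted p ran from 0.0645 to 0.55. With the replicate block and only the 4 antrum and corpus libraries, limma called Irx5, Irx3 and Irx2 lower (adjusted p = 0.0195, 0.0296 and 0.0174). That fit called 2177 genes, among them 4 higher and 3 lower of this list. With the block and all 6 libraries, 1 of the list was higher and 0 lower. In forestomach Irx5 stood at 8.12 and 3.39 CPM and Irx3 at 5.3 and 4.56 CPM, both above antrum.

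Called genes outside these lists included more regulators, named here after their values were seen. Meis2, a TALE homeodomain factor, stood at 39.2 and 41.0 CPM in antrum, against 12.1 and 13.7 CPM in corpus (log2 fold change 1.35, SE 0.28, adjusted p = 0.0435). Ripply3, a transcriptional corepressor, stood at 7.02 and 6.08 CPM in antrum, against 1.03 and 0.71 CPM in corpus (log2 fold change 1.80, SE 0.22, adjusted p = 0.00466). Onecut3 stood at 2.89 and 2.07 CPM in antrum, against 0.65 and 0.40 CPM in corpus (log2 fold change 0.97, SE 0.21, adjusted p = 0.0435). These genes were higher in both antrum libraries. The calls of Meis2 and Onecut3 were lost in every fit that left out 1 library, with adjusted p of 0.301 to 0.39 for Meis2 and 0.101 to 0.356 for Onecut3, and that of Ripply3 was lost without corpus 2 (adjusted p = 0.0593).

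Factors that both gastric regions share gave no call in the fit without a replicate block. All 18 listed factors were tested and none passed, with a median log2 fold change of -0.11. At an unadjusted p under 0.05, 0 were higher and 1 was lower, against 6.66% and 1.27% of all tested genes. Limma voom called none either, but it too had no replicate block. With the block and only the 4 antrum and corpus libraries, 5 were called higher and 1 lower. After rescaling to a common median ratio as well, 1 was higher and 5 were lower. Gata4, an endodermal zinc-finger factor, stood at 73.1 and 51.9 CPM in antrum, against 83.9 and 68.4 CPM in corpus, and the regions overlapped. Sox2, a factor of foregut epithelium, stood at 6.92 and 5.99 CPM in antrum, against 7.51 and 4.95 CPM in corpus, where the values also overlapped. Hnf4a, a nuclear receptor of digestive epithelia, stood at 99.98 and 65.8 CPM in antrum, against 83.3 and 66.6 CPM in corpus. The libraries did not overlap for 10 of the 18, of which 8 were higher and 2 lower in antrum. Over all tested genes 45.4% lay higher and 5.32% lower without overlap. Ehf, an epithelial ETS factor, stood at 80.0 and 116 CPM in antrum, against 48.9 and 57.5 CPM in corpus (adjusted p = 0.776). Atf3, a stress-induced factor, stood at 21.2 and 16.9 CPM in antrum, against 32.5 and 39.5 CPM in corpus (adjusted p = 0.432).

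**Figure D2:**
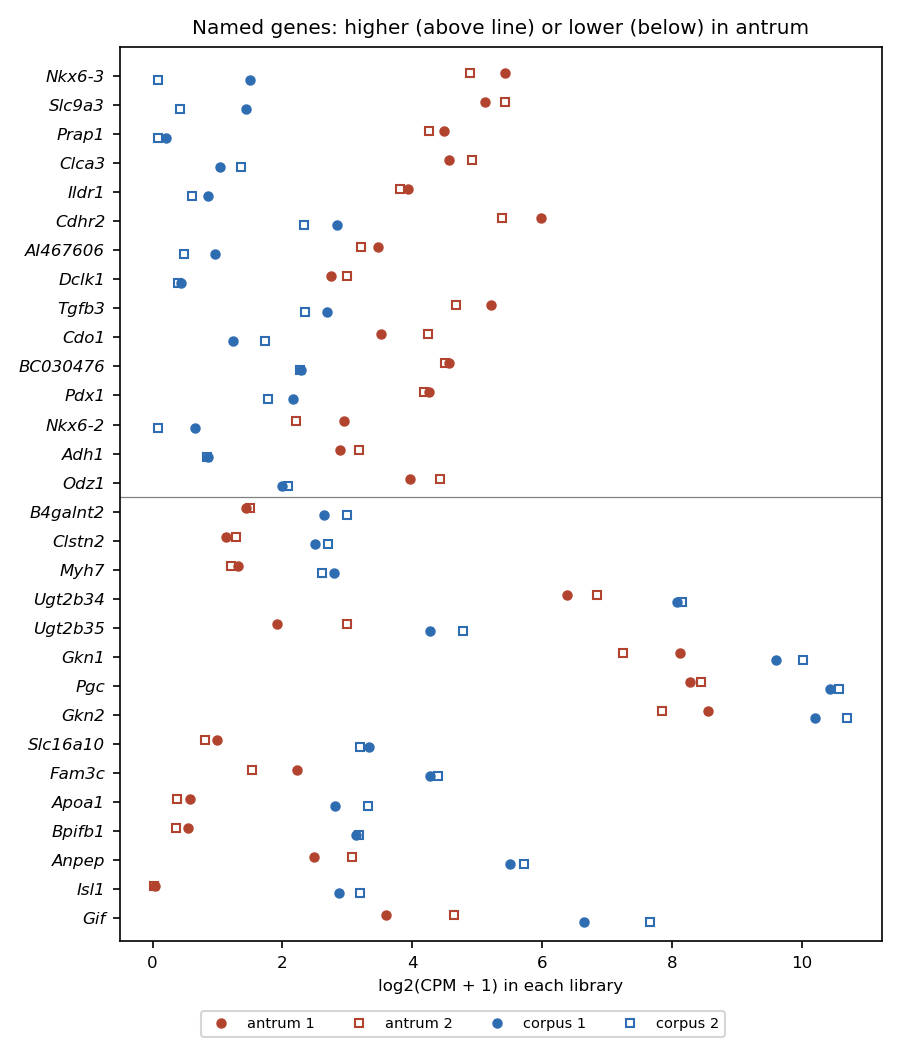
Level of the 15 named genes that rose most and the 15 that fell most in antrum, as log2(CPM + 1) on the horizontal axis, with 1 point per library (antrum in red, corpus in blue; filled circles are library 1 and open squares library 2). In every row both antrum points lie on the same side of both corpus points.

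Genes of intestinal absorptive cells moved in both directions. Of 38 listed, 22 were in the table and 15 were tested, with 3 higher, 2 lower and 10 not passing, and a median log2 fold change of 0.57. Slc9a3, the apical sodium-proton exchanger of intestine and kidney, stood at 33.9 and 41.8 CPM in antrum, against 1.71 and 0.34 CPM in corpus (log2 fold change 4.13, SE 0.33, adjusted p = 0.00066). Prap1, a secreted acidic protein of intestinal epithelium, stood at 21.3 and 18.1 CPM in antrum, against 0.16 and 0.06 CPM in corpus (log2 fold change 4.004, SE 0.22, adjusted p = 0.000113). Cdhr2, a protocadherin that links the tips of microvilli, stood at 61.9 and 40.8 CPM in antrum, against 6.13 and 4.03 CPM in corpus (log2 fold change 2.88, SE 0.30, adjusted p = 0.00248). The corpus values of Prap1 correspond to only a few reads. All 3 calls held whichever library was left out.

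At an unadjusted p under 0.05, 8 of the 15 were higher (6.66% of all tested genes were) and 3 lower (1.27% of all were). For 10 both antrum libraries lay above both corpus libraries, as they did for 45.4% of all tested genes. The remaining calls were lower ones. Anpep, which encodes aminopeptidase N of the brush border, stood at 4.62 and 7.40 CPM in antrum, against 44.5 and 51.7 CPM in corpus (log2 fold change -3.05, SE 0.31, adjusted p = 0.00466). Apoa1, an apolipoprotein of high-density lipoprotein, stood at 0.49 and 0.30 CPM in antrum, against 6.02 and 8.94 CPM in corpus (log2 fold change -2.80, SE 0.24, adjusted p = 0.00226). Both genes were lower in both antrum libraries, the Apoa1 call holding in every fit that left out 1 library and the Anpep call being lost without antrum 1 (adjusted p = 0.054) and without corpus 2 (adjusted p = 0.0593). The villin gene Vil1, a structural protein of microvilli, stood at 171 and 146 CPM in antrum, against 79.1 and 53.1 CPM in corpus, and did not pass (adjusted p = 0.112). Dpp4, another brush border peptidase, stood at 3.92 and 11.1 CPM in antrum, against 0.81 and 2.39 CPM in corpus, and did not pass (adjusted p = 0.197). The alkaline phosphatase gene Alpi and the apolipoprotein gene Apoa4 were listed at 0 in all 4 libraries. The caudal factor Cdx2, which sets up intestinal identity, stood at 0.39 and 0.64 CPM in antrum, was listed at 0 in both corpus libraries, and was too low to be tested.

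The gastrokines, secreted proteins of the gastric surface and glands, divided by member. Gkn1 and Gkn2, both products of pit cells, were lower in antrum, and Gkn3, a product of mucous neck and deep gland cells, was higher. The 3 genes follow each other on chromosome 6 with no other coding gene between them in RefSeq, Gkn1 and Gkn3 read from the minus strand and Gkn2 from the plus strand. The 300 bases around the start of each, most of them upstream, are shown because neighbours changed in opposite directions, together with those of Pgc, the chief cell gene that fell with Gkn1 and Gkn2. They are RefSeq sequences of build GRCm38.p6, not of the build used for the counts, and are read 5′ to 3′ on the strand of the gene. Capitals mark 3 motifs searched on both strands, none of which overlapped another here. The promoter box that binds the general transcription machinery was searched as TATAAA. The motif read by zinc-finger factors such as Gata4 was searched as AGATAA. The core read by many homeodomain proteins was searched as TAATTA.
Gkn1 (chr6:87350866-87351165, minus strand): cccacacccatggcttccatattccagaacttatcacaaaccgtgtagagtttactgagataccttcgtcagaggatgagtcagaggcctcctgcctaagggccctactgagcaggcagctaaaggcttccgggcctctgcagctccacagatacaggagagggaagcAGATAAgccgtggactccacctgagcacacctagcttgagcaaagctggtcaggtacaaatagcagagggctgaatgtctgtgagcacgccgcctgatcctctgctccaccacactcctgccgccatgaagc
Gkn2 (chr6:87373115-87373414, plus strand): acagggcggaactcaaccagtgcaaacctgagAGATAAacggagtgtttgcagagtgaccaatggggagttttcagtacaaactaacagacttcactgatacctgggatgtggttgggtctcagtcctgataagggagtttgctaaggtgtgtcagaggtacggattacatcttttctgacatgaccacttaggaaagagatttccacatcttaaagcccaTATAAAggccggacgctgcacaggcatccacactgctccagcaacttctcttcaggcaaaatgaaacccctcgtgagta
Gkn3 (chr6:87388886-87389185, minus strand): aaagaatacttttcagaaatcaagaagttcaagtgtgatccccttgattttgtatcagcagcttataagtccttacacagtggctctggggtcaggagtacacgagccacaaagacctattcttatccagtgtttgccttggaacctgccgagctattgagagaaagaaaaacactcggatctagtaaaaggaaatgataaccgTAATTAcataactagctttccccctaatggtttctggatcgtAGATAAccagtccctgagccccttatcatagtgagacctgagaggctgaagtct
Pgc (chr17:47726592-47726891, plus strand): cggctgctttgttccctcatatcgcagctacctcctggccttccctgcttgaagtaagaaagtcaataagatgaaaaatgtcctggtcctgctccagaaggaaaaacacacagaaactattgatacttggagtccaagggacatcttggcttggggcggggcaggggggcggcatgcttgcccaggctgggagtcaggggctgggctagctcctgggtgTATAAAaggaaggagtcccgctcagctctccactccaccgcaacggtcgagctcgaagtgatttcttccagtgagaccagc

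A TATA box began 29 bases before the start of Gkn2 and 31 bases before that of Pgc, and none was found in the windows of Gkn1 and Gkn3. A GATA motif began 82 bases before the start of Gkn1, 218 before that of Gkn2 and 4 before that of Gkn3. A homeodomain core was found only in the window of Gkn3, 46 bases before its start. Among all 32851 RefSeq promoters of this length, 13.6% held the TATA box, 11.2% the GATA motif and 5.29% the homeodomain core. Among the 11821 promoters of tested genes these shares were 7.45%, 6.23% and 2.62%. The 63 promoters of called genes higher in antrum came from 49 of the 66 genes and held the motifs in 14.3%, 22.2% and 3.17%. The 25 promoters of called genes lower in antrum came from 20 of the 24 genes and held them in 16%, 16% and 8%. A gene with several promoters was counted once for each, and differences between these shares were not tested. These matches describe letters in a window, and binding of any factor was not measured.

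Gkn3 stood at 391 and 442 CPM in antrum, against 138 and 135 CPM in corpus (log2 fold change 1.39, SE 0.25, adjusted p = 0.0256). Gkn1 stood at 276 and 151 CPM in antrum, against 775 and 1036 CPM in corpus (log2 fold change -2.34, SE 0.34, adjusted p = 0.0303). Gkn2 stood at 375 and 229 CPM in antrum, against 1174 and 1660 CPM in corpus (log2 fold change -2.46, SE 0.32, adjusted p = 0.0182). Both antrum libraries lay above both corpus libraries for Gkn3 and below them for the other two. With 1 library fewer the calls of all 3 were lost, at adjusted p of 0.188 to 0.326 for Gkn3, 0.054 to 0.308 for Gkn1 and 0.054 to 0.213 for Gkn2. Their directions stayed as given in each of these fits, which the lack of overlap had fixed. In bulk RNA, fewer cells of a type and less RNA per cell cannot be told apart, which applies to every cell type marker here.

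**Figure D3:**
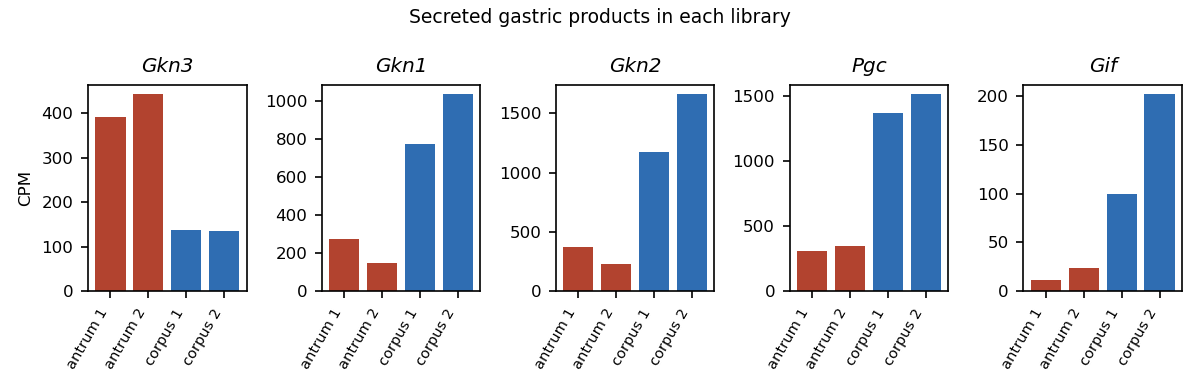
CPM of Gkn3, Gkn1, Gkn2, Pgc and Gif in each library (bars start at 0; antrum in red, corpus in blue; the vertical scale differs between panels, and bars are single libraries with no error). Gkn3 is higher in both antrum libraries, and the other 4 genes are lower in both antrum libraries.

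No other pit cell gene passed the test. Of 16 tested, none was higher, 2 (Gkn1 and Gkn2) were lower and 14 did not pass, with a median log2 fold change of -0.19. Muc5ac, the mucin of the gastric surface, stood at 277 and 105 CPM in antrum, against 488 and 417 CPM in corpus, and did not pass (adjusted p = 0.295). The antrum libraries differed for Muc5ac by more than the corpus libraries did, and both lay lower than corpus. Muc1, a cell surface mucin, stood at 204 and 172 CPM in antrum, against 154 and 130 CPM in corpus, and Ctse, the aspartic protease cathepsin E, at 338 and 256 CPM in antrum, against 240 and 215 CPM in corpus. Neither overlapped between regions, and neither passed. The tight junction gene Cldn18 stood at 1148 and 980 CPM in antrum, against 1189 and 1041 CPM in corpus, and overlapped.

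Genes of neck and deep gland mucous cells were mixed as well. Of 12 tested, Gkn3 was higher, Bpifb1 was lower and 10 did not pass, with a median log2 fold change of -0.52. Bpifb1, a secreted bactericidal/permeability-increasing-like protein, stood at 0.46 and 0.28 CPM in antrum, against 7.79 and 8.04 CPM in corpus (log2 fold change -2.92, SE 0.20, adjusted p = 0.00066), and its call held whichever library was left out. Muc6, the gland mucin, stood at 52.4 and 52.2 CPM in antrum, against 82.7 and 91.0 CPM in corpus, and did not pass (adjusted p = 0.403). Tff2, a trefoil peptide co-secreted with Muc6, stood at 17.97 and 14.9 CPM in antrum, against 21.7 and 8.58 CPM in corpus, and overlapped. Expi, listed under an older symbol for the whey acidic protein gene Wfdc18, stood outside the list and was higher in antrum (log2 fold change 1.39, SE 0.20, adjusted p = 0.00916), while the row named Wfdc18 was listed at 0. Without 1 library the adjusted p of Expi was 0.0519 for antrum 1, 0.0664 for antrum 2 and 0.0871 for corpus 2.

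Chief cell genes lay lower in antrum in part. Of 15 listed, 13 were in the table and 8 were tested, with 0 higher, 2 lower and 6 not passing. Their median log2 fold change was -0.86, the lowest of the 30 lists. The list holds the markers Gif and Pgc and was chosen with earlier results of these data known, so this rank is no test. Gif was called with a log2 change of -3.25 (SE 0.42, adjusted p = 0.015) and averaged 17.5 ± 9.03 CPM in antrum and 150.4 ± 72.2 CPM in corpus (SD, n = 2 each). Pgc was called with a log2 change of -2.36 (SE 0.26, adjusted p = 0.00685) and averaged 327 CPM in antrum and 1445 CPM in corpus (n = 2 each). Dmbt1, a secreted scavenger receptor protein, stood at 44.8 and 48.7 CPM in antrum, against 111 and 171 CPM in corpus, just short of the threshold (adjusted p = 0.0506). Bhlha15 (Mist1), the factor that matures chief cells, stood at 9.01 and 5.29 CPM in antrum, against 8.74 and 8.83 CPM in corpus, and overlapped. Pepd, a dipeptidase, lay the other way at 40.7 and 32.8 CPM in antrum, against 24.7 and 18.6 CPM in corpus, and did not pass (adjusted p = 0.486). The call of Gif was lost without antrum 1 (adjusted p = 0.113) and without corpus 2 (adjusted p = 0.107), and that of Pgc in every fit that left out 1 library (adjusted p of 0.0661 to 0.115).

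Parietal cell genes gave 1 call. Of 13 tested, Esrrg was lower and 12 did not pass, with a median log2 fold change of -0.16. Esrrg, an orphan nuclear receptor that drives parietal cell maturation, was listed at 0 in antrum 1 and antrum 2, against 1.52 and 3.02 CPM in corpus (adjusted p = 0.018, a test whose size depends on the pseudocount). Its adjusted p was 0.117 without antrum 1, 0.113 without antrum 2 and 0.0593 without corpus 2. Ppargc1a, a coactivator of mitochondrial genes, stood at 25.0 and 22.7 CPM in antrum, against 33.5 and 39.4 CPM in corpus, and did not pass (adjusted p = 0.698). The anion exchanger Slc4a2, which serves acid secretion, stood at 65.4 and 41.4 CPM in antrum, against 46.9 and 30.9 CPM in corpus, and overlapped.

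Of the tuft cell genes, Dclk1 was higher in antrum. Dclk1, a microtubule-associated kinase used as a tuft cell marker, stood at 5.73 and 6.95 CPM in antrum, against 0.35 and 0.31 CPM in corpus (log2 fold change 2.25, SE 0.27, adjusted p = 0.00466). The call held whichever library was left out, and the antrum mean was 19.2 times the corpus mean. The genes that define tuft cells were at or near 0 in both regions. Pou2f3, the factor that specifies them, stood at 0 and 0.02 CPM in antrum, against 0.14 and 0.02 CPM in corpus. The ion channel gene Trpm5 stood at 0.28 and 0.58 CPM in antrum, against 0.24 and 0.19 CPM in corpus. Of the 4 tested members Dclk1 was higher and 3 did not pass, among them the actin-binding gene Avil at 237 and 167 CPM in antrum, against 190 and 149 CPM in corpus.

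Of the genes in the transport list 1 was called, while the called exchanger Slc9a3 was listed with the intestinal genes. Of 19 tested genes of acid, bicarbonate, chloride and sodium transport, Clca3 was higher and 18 did not pass, with a median log2 fold change of 0.15. Clca3 (Clca1 in RefSeq), a secreted protein of mucous cells, stood at 22.7 and 29.2 CPM in antrum, against 1.06 and 1.57 CPM in corpus (log2 fold change 3.33, SE 0.24, adjusted p = 0.000557). The Clca family has close copies between which reads could have been split. Ildr1, a protein of the junctions where 3 cells meet and in none of the lists, stood at 14.2 and 13.0 CPM in antrum, against 0.81 and 0.52 CPM in corpus (log2 fold change 2.92, SE 0.24, adjusted p = 0.00066). Both calls held whichever library was left out. Car9, a carbonic anhydrase induced by low oxygen, stood at 23.1 and 15.9 CPM in antrum, against 66.1 and 44.6 CPM in corpus, and did not pass (adjusted p = 0.156). Slc16a10, a carrier of aromatic amino acids outside the list, stood at 0.98 and 0.75 CPM in antrum, against 9.03 and 8.20 CPM in corpus (log2 fold change -2.58, SE 0.29, adjusted p = 0.00857), and its adjusted p was 0.054 without antrum 1, 0.0841 without antrum 2 and 0.0523 without corpus 2.

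Ligands of the BMP and TGF-beta families, which signal through receptor kinases to Smad proteins, differed singly. Of 16 tested ligands and targets 1 was higher, none was lower and 15 did not pass, with a median log2 fold change of -0.09. Tgfb3, a TGF-beta ligand, stood at 35.9 and 24.5 CPM in antrum, against 5.45 and 4.09 CPM in corpus (log2 fold change 2.21, SE 0.27, adjusted p = 0.00524, and 0.0712 without corpus 2). Bmp2 lay the other way, at 7.62 and 5.67 CPM in antrum, against 18.4 and 17.0 CPM in corpus, and Bmp4 at 0.59 and 0.64 CPM in antrum, against 2.03 and 1.68 CPM in corpus. Neither BMP ligand passed (adjusted p = 0.215 for Bmp2 and 0.142 for Bmp4). Id1, a target of BMP signalling, stood at 20.8 and 17.1 CPM in antrum, against 20.6 and 14.2 CPM in corpus, and overlapped.

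Stem cell and Wnt target genes, which overlap as lists, gave no call in the fit without a replicate block. With the block and only the 4 antrum and corpus libraries, 7 stem cell and 8 Wnt target genes were called higher and 0 lower. After rescaling to a common median ratio as well, 3 stem cell genes were higher and 1 lower, and 5 Wnt targets were higher and 1 lower. Of 15 tested stem and progenitor markers 4 were higher and 0 lower at an unadjusted p under 0.05, with a median log2 fold change of 0.26, and limma voom called none. Of 15 tested Wnt targets 6 were higher and 0 lower at that level, with a median of 0.33, and limma voom again called none. Lgr5, a Wnt-responsive receptor of antral stem cells, lay lower in antrum, at 9.55 and 11.9 CPM, against 14.1 and 15.8 CPM in corpus (adjusted p = 0.741). Axin2, a feedback inhibitor of Wnt signalling, stood at 16.3 and 17.0 CPM in antrum, against 8.03 and 7.32 CPM in corpus (adjusted p = 0.415). Ly6a (Sca-1), a surface antigen of regenerating epithelia, stood at 384 and 268 CPM in antrum, against 149 and 80.5 CPM in corpus (adjusted p = 0.15). Over all tested genes 6.66% were higher and 1.27% lower at that level, and with 1 library left out the counts of higher genes were 1 to 3 for the stem cell list and 1 to 5 for the Wnt list. The regions did not overlap for Lgr5, Axin2 or Ly6a, yet none of them passed. The 12 tested Hedgehog and Notch genes gave no call and none at an unadjusted p under 0.05, nor by limma voom. With the block and only the 4 antrum and corpus libraries 1 of them was higher, and 0 after the rescaling as well.

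Proliferation genes lay slightly higher in antrum without any passing in the fit without a replicate block. Of 36 tested, 11 were higher and 0 lower at an unadjusted p under 0.05, against 6.66% higher and 1.27% lower of all tested genes. Limma voom, also without a replicate block, called none, and the median log2 fold change was 0.39. With the block and only the 4 antrum and corpus libraries, 20 were called higher and 0 lower. That fit called 2177 of the 11891 tested genes. After rescaling to a common median ratio as well, 2 were called higher and 0 lower. For 34 of the 36 both antrum libraries lay above both corpus libraries, against 45.4% of all tested genes. Mki67, a marker of cycling cells, stood at 165 and 286 CPM in antrum, against 131 and 147 CPM in corpus (adjusted p = 0.828). The summed CPM of the list was 1280 and 1790 in antrum, against 1010 and 980 in corpus, and most of the excess lay in antrum 2. Without antrum 2 the median was 0.14. The count of 11 became 3 with a common median ratio and 4 with the libraries rescaled over listed genes. It was 4 without antrum 1 and 0 without antrum 2, without corpus 1 or without corpus 2. Cholesterol synthesis genes (19 tested, 5 higher and 0 lower at an unadjusted p under 0.05, median 0.26) and genes of regeneration and YAP signalling (18 tested, 7 higher and 0 lower, median 0.16) gave no call either, nor by limma voom. With 1 library left out their counts were 0 to 7 and 3 to 6. With the block and only the 4 antrum and corpus libraries, 14 cholesterol synthesis and 6 regeneration genes were called higher and 0 lower. After the rescaling as well, 4 and 6 were higher and 0 lower. Without the block, 1 regeneration gene was called higher with a pseudocount of 5. The filter at 1 CPM in 2 of the 4 libraries also gave 1. The part of these lists in the differences between regions was not tested.

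**Figure D4:**
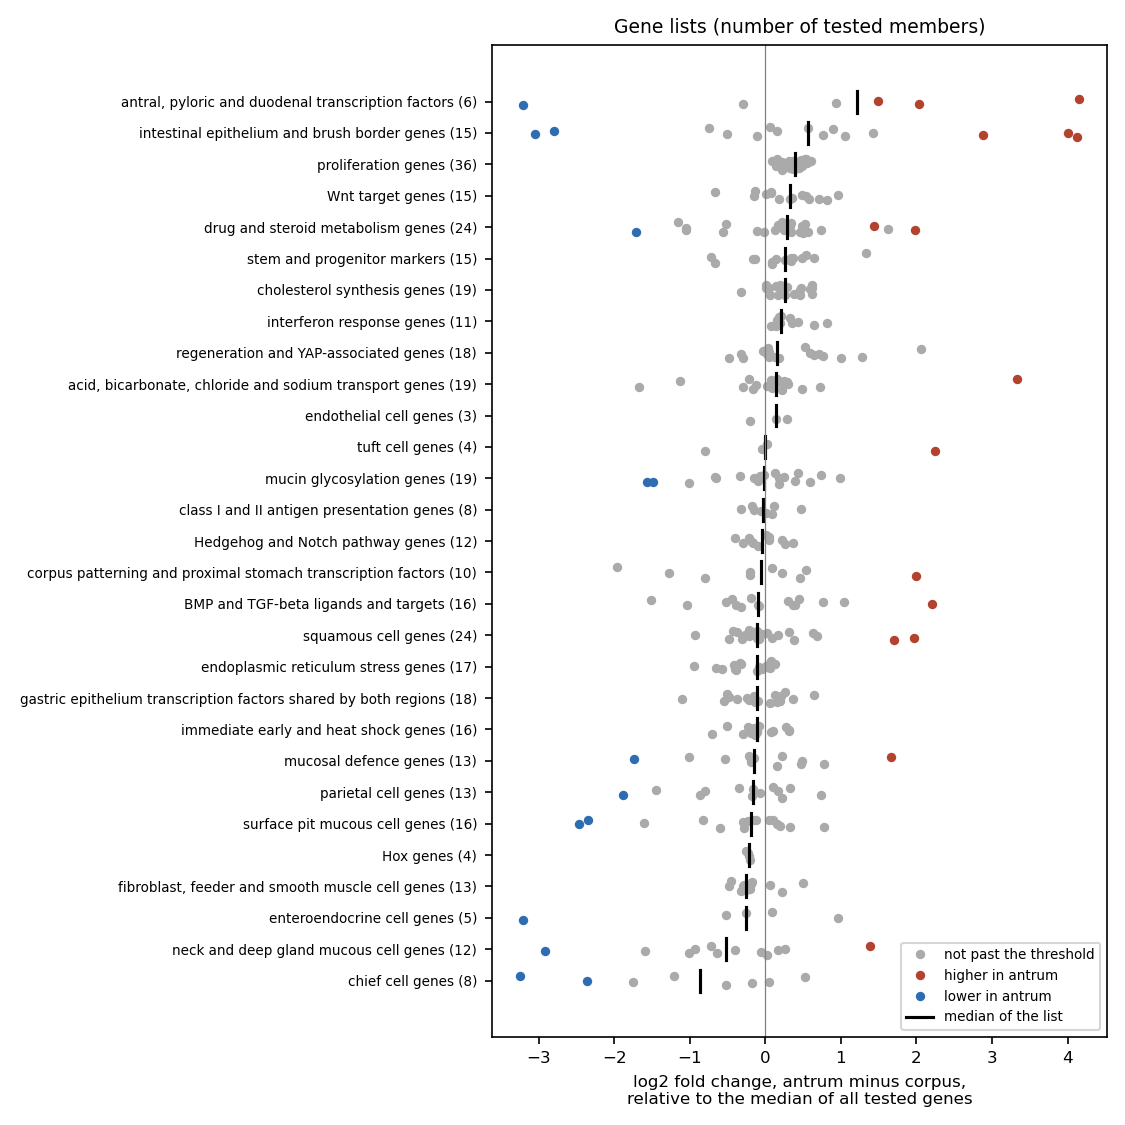
Log2 fold change, antrum over corpus, with the all-gene median set to 0 (horizontal axis), for the tested members of each list with at least 3 of them (rows, with the number tested). Points are genes, red if higher and blue if lower in antrum at an adjusted p under 0.05, and black bars are list medians, which run from 1.21 for the antral factors to -0.86 for chief cell genes.

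Enzymes of drug, steroid and retinoid metabolism were called in both directions. Of 24 tested genes of the list 2 were higher, 1 was lower and 21 did not pass, with a median log2 fold change of 0.29. Adh1, an alcohol and retinol dehydrogenase, stood at 6.38 and 8.08 CPM in antrum, against 0.81 and 0.78 CPM in corpus (log2 fold change 1.98, SE 0.22, adjusted p = 0.00292), and held whichever library was left out. Aldh1a1, a retinaldehyde dehydrogenase, stood at 69.0 and 81.6 CPM in antrum, against 26.5 and 20.2 CPM in corpus (log2 fold change 1.44, SE 0.27, adjusted p = 0.0316), and lost its call in every fit that left out 1 library (adjusted p of 0.143 to 0.43). Ugt2b34, a glucuronosyltransferase, stood at 82.6 and 114 CPM in antrum, against 269.7 and 283 CPM in corpus (log2 fold change -1.71, SE 0.27, adjusted p = 0.0435). Ugt2b35, from the same gene cluster on chromosome 5, stood at 2.79 and 6.99 CPM in antrum, against 18.2 and 26.3 CPM in corpus (log2 fold change -2.27, SE 0.36, adjusted p = 0.0424). Genes of this family are close copies whose reads the counting could have split. Without 1 library the adjusted p of Ugt2b34 was 0.17 to 0.493, and that of Ugt2b35 was 0.253 without antrum 1, 0.0872 without corpus 1 and 0.306 without corpus 2.

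Of 19 tested mucin glycosylation genes 2 were lower, none was higher and 17 did not pass, with a median log2 fold change of -0.01. B4galnt2, a glycosyltransferase that makes a blood group antigen, stood at 1.70 and 1.83 CPM in antrum, against 5.21 and 6.97 CPM in corpus (log2 fold change -1.56, SE 0.23, adjusted p = 0.042). Chst4, a sulphotransferase acting on mucin-type glycans, stood at 1.24 and 1.17 CPM in antrum, against 4.26 and 4.36 CPM in corpus (log2 fold change -1.48, SE 0.20, adjusted p = 0.0256). Both were lost with 1 library fewer, at adjusted p of 0.0872 to 0.317 for B4galnt2 and 0.105 to 0.17 for Chst4. Of 13 tested mucosal defence genes 1 was higher and 1 lower, with a median of -0.14. Ltf, the iron-binding protein lactoferrin, stood at 12.6 and 9.23 CPM in antrum, against 2.58 and 1.87 CPM in corpus (log2 fold change 1.66, SE 0.26, adjusted p = 0.015). Reg3g, a bactericidal lectin, stood at 0.57 and 0.60 CPM in antrum, against 2.44 and 5.08 CPM in corpus (log2 fold change -1.74, SE 0.27, adjusted p = 0.0435). Leaving out antrum 1, corpus 1 or corpus 2 ended the call of Ltf (adjusted p = 0.12, 0.069 and 0.198), and leaving out antrum 1, antrum 2 or corpus 2 that of Reg3g (adjusted p = 0.258, 0.232 and 0.188).

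The remaining genes with the largest changes fall in none of the lists. Among those higher in antrum, Cdo1, the enzyme that oxidises cysteine, stood at 10.4 and 17.9 CPM in antrum, against 1.36 and 2.33 CPM in corpus (log2 fold change 2.18, SE 0.30, adjusted p = 0.00857, and 0.0645 without corpus 1). The teneurin gene Odz1 stood at 14.5 and 20.4 CPM in antrum, against 2.96 and 3.25 CPM in corpus (log2 fold change 1.94, SE 0.25, adjusted p = 0.00538, but 0.0537 without corpus 1 and 0.0593 without corpus 2). The uncharacterised gene AI467606 stood at 10.0 and 8.27 CPM in antrum, against 0.95 and 0.40 CPM in corpus (log2 fold change 2.40, SE 0.24, adjusted p = 0.00226). BC030476, also uncharacterised, stood at 22.7 and 21.8 CPM in antrum, against 3.85 and 3.82 CPM in corpus (log2 fold change 2.05, SE 0.23, adjusted p = 0.00292). The last 2 genes kept their calls whichever library was left out, and the libraries of a region lay close together for BC030476.

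Among those lower in antrum, Fam3c, a secreted cytokine-like protein, stood at 3.69 and 1.88 CPM in antrum, against 18.4 and 20.0 CPM in corpus (log2 fold change -2.67, SE 0.32, adjusted p = 0.0116). Myh7, the slow muscle myosin heavy chain, stood at 1.5 and 1.32 CPM in antrum, against 5.91 and 5.08 CPM in corpus (log2 fold change -1.64, SE 0.21, adjusted p = 0.0186). Clstn2, a calsyntenin of neuronal membranes, stood at 1.19 and 1.43 CPM in antrum, against 4.67 and 5.52 CPM in corpus (log2 fold change -1.61, SE 0.21, adjusted p = 0.0205). All 3 were low in both antrum libraries. Fam3c lost its call without antrum 2, corpus 1 or corpus 2 (adjusted p = 0.101, 0.0686 and 0.107), and Myh7 and Clstn2 lost theirs in every such fit (adjusted p of 0.0821 to 0.148 for Myh7 and 0.0645 to 0.16 for Clstn2).

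Of 24 tested squamous cell genes 2 were higher in antrum, none was lower and 22 did not pass, with a median log2 fold change of -0.10. They were Tgm1, a transglutaminase of squamous cells, and the keratin gene Krt4. Tgm1 stood at 5.47 and 4.20 CPM in antrum, against 0.27 and 0.29 CPM in corpus (log2 fold change 1.97, SE 0.25, adjusted p = 0.00538), and at 32.3 and 27.4 CPM in forestomach. Krt4 stood at 6.38 and 4.67 CPM in antrum, against 1.28 and 0.29 CPM in corpus (log2 fold change 1.70, SE 0.31, adjusted p = 0.0303), and at 1.80 and 2.38 CPM in forestomach. Trp63 and Krt5, which define squamous basal cells, were under 1 CPM in all 4 glandular libraries. The summed CPM of the squamous list was 635 and 451 in antrum, against 394 and 295 in corpus, and its part in both calls was not tested. Both lost their calls without some libraries, at adjusted p of 0.0642 to 0.0821 for Tgm1 (antrum 1, corpus 1 or corpus 2 left out) and 0.101 to 0.251 for Krt4 (antrum 1, antrum 2 or corpus 2 left out).

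Other cells that the cultures could hold showed no call in the fit without a replicate block. Of 20 fibroblast, feeder and smooth muscle genes 13 were tested, with 0 called, 0 at an unadjusted p under 0.05, none by limma voom and a median log2 fold change of -0.25. Their summed CPM was 141 and 130 in antrum, against 160 and 85.1 in corpus, and overlapped. The collagen gene Col1a1, for example, stood at 15.4 and 12.9 CPM in antrum, against 19.8 and 9.63 CPM in corpus. Of the endothelial genes 3 were tested and of the immune genes 2, with 0 called. At an unadjusted p under 0.05, 0 endothelial genes and 1 immune gene were higher, and 0 lower. Summed CPM, antrum before corpus, was 7.9 and 7.89 against 6.46 and 5.2, and 16.1 and 16.3 against 11 and 7.89. With the block and only the 4 antrum and corpus libraries, 1 fibroblast list gene, 0 endothelial genes and 1 immune gene were called higher. After rescaling to a common median ratio as well, these were 0, 0 and 1. Interferon response genes (11 tested, 4 higher and 0 lower at an unadjusted p under 0.05, median 0.21), antigen presentation genes (8 tested, 1 higher and 0 lower, median -0.03), endoplasmic reticulum stress genes (17 tested, 0 and 0, median -0.11) and immediate early and heat shock genes (16 tested, 0 and 0, median -0.11) gave no call, nor did limma voom. Over all tested genes 6.66% were higher and 1.27% lower at an unadjusted p under 0.05. With the block and only the 4 antrum and corpus libraries, 3 interferon, 1 antigen presentation and 2 immediate early and heat shock genes were called higher. That fit called 2 endoplasmic reticulum stress genes lower. After rescaling to a common median ratio as well, these counts were 1, 0 and 0 higher and 4 lower. Hox genes, which pattern the trunk, were under 1 CPM in every antrum and corpus library. Together the 30 lists held 403 tested genes, of which 29 were called, 16 higher and 13 lower. Of all tested genes 0.757% were called, 0.555% higher and 0.202% lower. The lists were chosen with earlier results of these data known, so their share of calls is no test of them. Of the 90 called genes 61 were in no list.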

How the data were processed

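Gene expression was measured by RNA-seq in 6 libraries of cultured mouse stomach epithelium, 2 each from antrum, corpus and forestomach. The deposited table holds CPM to 2 decimals, made by the authors before deposit, and the submitters' processing notes name STAR, HTSeq, DESeq2, edgeR and the build mm9 with no version, role or order. The annotation, strand setting and CPM denominator are not stated there, and listed genes took 33.2% to 43.0% of the scale in antrum and corpus. Reads from overlapping or antisense genes, or from near-identical copies, could therefore not be told apart.

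Of 15450 rows 19 with date-like symbols were dropped, which left 15431. Depths were estimated from the step between low CPM values (tolerance 0.0051 CPM). At these depths 1 read was worth 0.021 to 0.0271 CPM. In each library 100.0% of values under 200 CPM lay on whole reads, against 29.7% to 41.8% at a wrong step. Limma voom was run on reads rounded from these steps, which are estimates and not counts from the authors. Genes reaching 1 CPM in 2 of 6 libraries were fitted as log2(CPM + 1) with limma 3.58.1 (trend, 3 regions, 3 residual and 6.1 prior degrees of freedom) in R 4.3.3, and p-values were adjusted by Benjamini-Hochberg over all 11891 genes. The script was tested on simulated data. Samples were grouped by the region in the labels, and columns by the region in their names. Fold changes are given relative to the median over all tested genes. Values are given in every library for the 15 highest and 15 lowest log2 fold changes among called genes with at least 5 CPM in the higher region and no overlap between regions, and for 7 region markers. Unnamed gene models, mitochondrial and sex-linked marker genes were not named. The members and gene lists were chosen with earlier results of these data known. Promoter windows came from RefSeq on GRCm38.p6, matched by symbol. Alternatives covered the pseudocount, filter, scaling, libraries fitted, replicate number, limma voom and each library left out.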

Additional observations from a re-analysis of the deposited data

How the results depend on the processing

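The 90 calls (66 higher, 24 lower in antrum) depended on the processing in number. None of 1413 gene values under 16 alternatives reversed direction, but these were genes already called, without overlap between regions. Leaving out 1 library could therefore not reverse them, and the other fits reused the same libraries. Without a filter on low values 54 genes were called (40 higher, 14 lower). With a common median ratio 41 were higher, and with each library set to 1 M over listed genes 56 were called, 38 of them higher. With only the antrum and corpus libraries in the fit 26 were called (19 higher, 7 lower), 12 of them list genes against 29 in the report. Limma voom, added after seeing the data, called 54 (42 higher, 12 lower). With 1 library left out, the counts were 19 to 33 genes, 14 to 27 higher, 5 to 10 lower and 11 to 19 list genes. A region left with 1 library was then assumed to vary like the others. The remaining filters and pseudocounts kept the count within 1.5 times. The causes were not tested. Called under every alternative in which they were tested were 12 genes, Olfml2b in 15 and the others in 16 of them, 9 higher (Dclk1, BC030476, Slc9a3, Prap1, Clca3, Ildr1, Cdhr2, AI467606, Olfml2b) and 3 lower (Apoa1, Bpifb1, Isl1). The planned edgeR and DESeq2 fits were not run, and limma voom used reads estimated from the CPM.

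The columns share replicate numbers, and the titles share the IDs AT75 and AT76 across regions, but no label ties a column's number to an ID or says what an ID stands for. Deviations from the region means correlated across genes at 0.614 between antrum and corpus, -0.106 between antrum and forestomach and -0.0602 between corpus and forestomach, and with the IDs not tied to the columns the numbers were not used as pairs in the report. With the replicate block 33 genes were called (25 higher, 8 lower; 17 list genes). With the replicate block and only these 4 libraries, a fit added after seeing the data, there were 2177 (1929 higher, 248 lower; 178 list genes), of which 88.6% were higher. After rescaling to a common median ratio as well there were 819 (415 higher, 404 lower; 116 list genes), 50.7% higher. All 90 genes were among the calls of both these fits. With the replicate block and these 4 libraries, lists with no call in the report gave calls, 20 of 36 proliferation, 14 of 19 cholesterol synthesis and 8 of 15 Wnt target genes, all higher. With the rescaling as well these were 2, 4 and 6 genes, 1 of the Wnt targets lower. Of the 18 shared gastric factors the first fit called 5 higher and 1 lower, and the rescaled fit 1 and 5. Of 17 endoplasmic reticulum stress genes 2 were lower, and 4 with the rescaling. Of 15 stem and progenitor markers 7 were higher, of 18 regeneration genes 6 and of 11 interferon genes 3. With the rescaling these were 3 higher and 1 lower, 6 higher and 1 higher. The number of libraries, 2 a region, limits the precision of all values.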
